A study of Mus musculus with 33 samples.

Results

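The transcriptomes of EBs + RA from Neil1-mutant and control mESC lines were compared across all genes, with the genes that were higher in the mutant described first. EBs, or embryoid bodies, are aggregates in which mESCs differentiate in suspension, and RA (all-trans retinoic acid) drives them toward neural fates. The comparison comprised 6 of the 33 libraries of the series, 3 from Neil1 mutants and 3 from controls, chosen by genotype and treatment from the sample labels. All lines came from E14TG2a mESCs, a line of mouse embryonic stem cells, and each was a clone isolated after CRISPR/Cas9 transfection. The controls were the independent clones control #1, #4 and #7, and the mutants were the independent clones Neil1 #7, #9 and #11, so that each library stood for 1 clone and the error is the spread between clones. In EBs with and without RA, a segment of chromosome X was raised in every mutant clone and in no control, as described below. The spread between clones cannot tell this apart from the Neil1 mutation. Both genotypes were grown as EBs for 8 days and received 5 µM RA from day 4. The same clones as EBs without RA (6 libraries) were used to ask whether a change depended on RA. Values of clones are given in the order just named, controls first, as CPM, counts scaled to the TMM-normalized library size.

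NEIL1 is a DNA glycosylase of the NEI-like family, which excises oxidized bases and starts base excision repair. RA enters cells, is handled by the CRABP binding proteins, is made by the ALDH1A enzymes and degraded by the CYP26 enzymes, and acts through RAR and RXR receptors that bind genes such as those of the Hox clusters. In EBs it favors neural progenitors and neurons over mesoderm and endoderm. Genes of meiosis and of the germline are kept silent in most embryonic cells by DNA methylation and by the PRC1.6 repressor complex, whose MGA-MAX and E2F6 subunits recognize CACGTG and GCGGGAA respectively, and several of them are switched on in pluripotent cells. EBs also form an outer layer of primitive endoderm, which gives visceral and parietal endoderm, the second of which secretes a thick laminin and collagen IV basement membrane.

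Totals on genes were 24114162 to 29133599 counts per library, and reads that aligned to more than 1 place, which were not counted, made up 11.44% to 16.52%. The mitochondrially encoded genes were listed at 0 in all 6 libraries, so that nothing is reported for them. Libraries of the same genotype differed from each other by a root mean square of 0.375 to 0.716 in log2 CPM, and libraries of different genotypes by 0.915 to 1.40. Within the controls, control #7 was the one nearest to the mutants, and within the mutants Neil1 #11 was the one farthest from the controls. The libraries of mESCs are used here only for a few levels and medians over chromosome X set beside those of EBs + RA. Among them that of Neil1 #11 stood apart, with 0.944% of its counts on chromosome X and no counts on Y, whereas the EB and EB + RA libraries of this clone had counts on Y. In bulk RNA, fewer cells of a type and less RNA per cell cannot be told apart, and this applies to every group below.

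The Neil1 mutants were made with a pair of guides on the minus strand of chromosome 9. They are printed to show what the counts can tell about the mutation, with the adjoining PAM of the genome in capitals.
mmNeil1_P1_1: gggaggaacaggtttgtaagTGG
mmNeil1_P1_2: gatgtcaggatccttccagcTGG
In the mouse genome NCBIM37 the first matched chr9:56995167-56995186 with its cut site in an intron, and the second matched chr9:56994583-56994602 with its cut site in an exon of Neil1 (chr9:56990607-56995929). The 584 bases between the cut sites held 279 of the 1688 exonic bases of the gene (16.5%), of which 256 were coding, so that a count per gene can still register transcripts that lack this part. Neil1 was measured at 6.45, 7.86 and 8.69 CPM in the controls and 4.64, 2.36 and 3.15 in the mutants. The groups did not overlap, and the gene fell (log2FC −1.18 ± 0.30, FDR 0.018). In EBs without RA the levels were 5.48, 8.7 and 8.2 CPM in the controls and 5.73, 1.31 and 2.93 in the mutants, where Neil1 #7 lay among the controls. As undifferentiated mESCs, Neil1 #7 had 30.2 CPM against 9.57, 9.31 and 7.48 CPM in the controls (each stage was normalized on its own), so that the total count of this gene marks the mutants at some stages only.

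Retinoic acid-treated mutant EBs differed from the controls in a large share of the transcriptome. Of 16019 genes tested, 6580 (41.1%) were DE (FDR under 0.1 with a log2 fold change beyond 0.5 in either direction). Of these, 3390 rose (21.2% of the genes tested) and 3190 fell (19.9%). The raised genes had a median log2 fold change of 1.19 and the lowered genes one of −1.11, and the median over all genes tested was near 0. Large falls were more frequent than large rises. At that end, 795 genes fell by more than 2 on the log2 scale and 436 rose by more than 2, whereas past a log2 change of 1 there were 2121 raised and 1768 lowered genes. All 3 mutant clones lay above all 3 controls for 3976 genes (24.8%) and below them for 4416 genes (27.6%). Relative to the control mean, the median of the raised genes was −0.09, −0.14 and 0.23 in the controls and 0.86, 0.92 and 1.07 in the mutants, and control #7 was the control that leaned toward the mutants. Without control #1 (replicate 1), 4594 genes were DE and 2114 of them rose, and without control #7 (replicate 3) 7199 were DE. In what follows, each gene has its log2 fold change of mutants over controls (log2FC) ± the standard error of the fit. FDR is the Benjamini-Hochberg adjusted p of edgeR's quasi-likelihood test over all genes tested. Of the genes named below as raised or lowered, all but Cdx2 and Col4a1 had the 3 mutant clones outside the range of the controls. Each list of genes has its number of raised and lowered members, set beside the 21.2% raised and 19.9% lowered among all genes tested. The members were chosen with earlier results of these data known, so these shares describe the lists and are not a test of them.

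**Figure D1:**
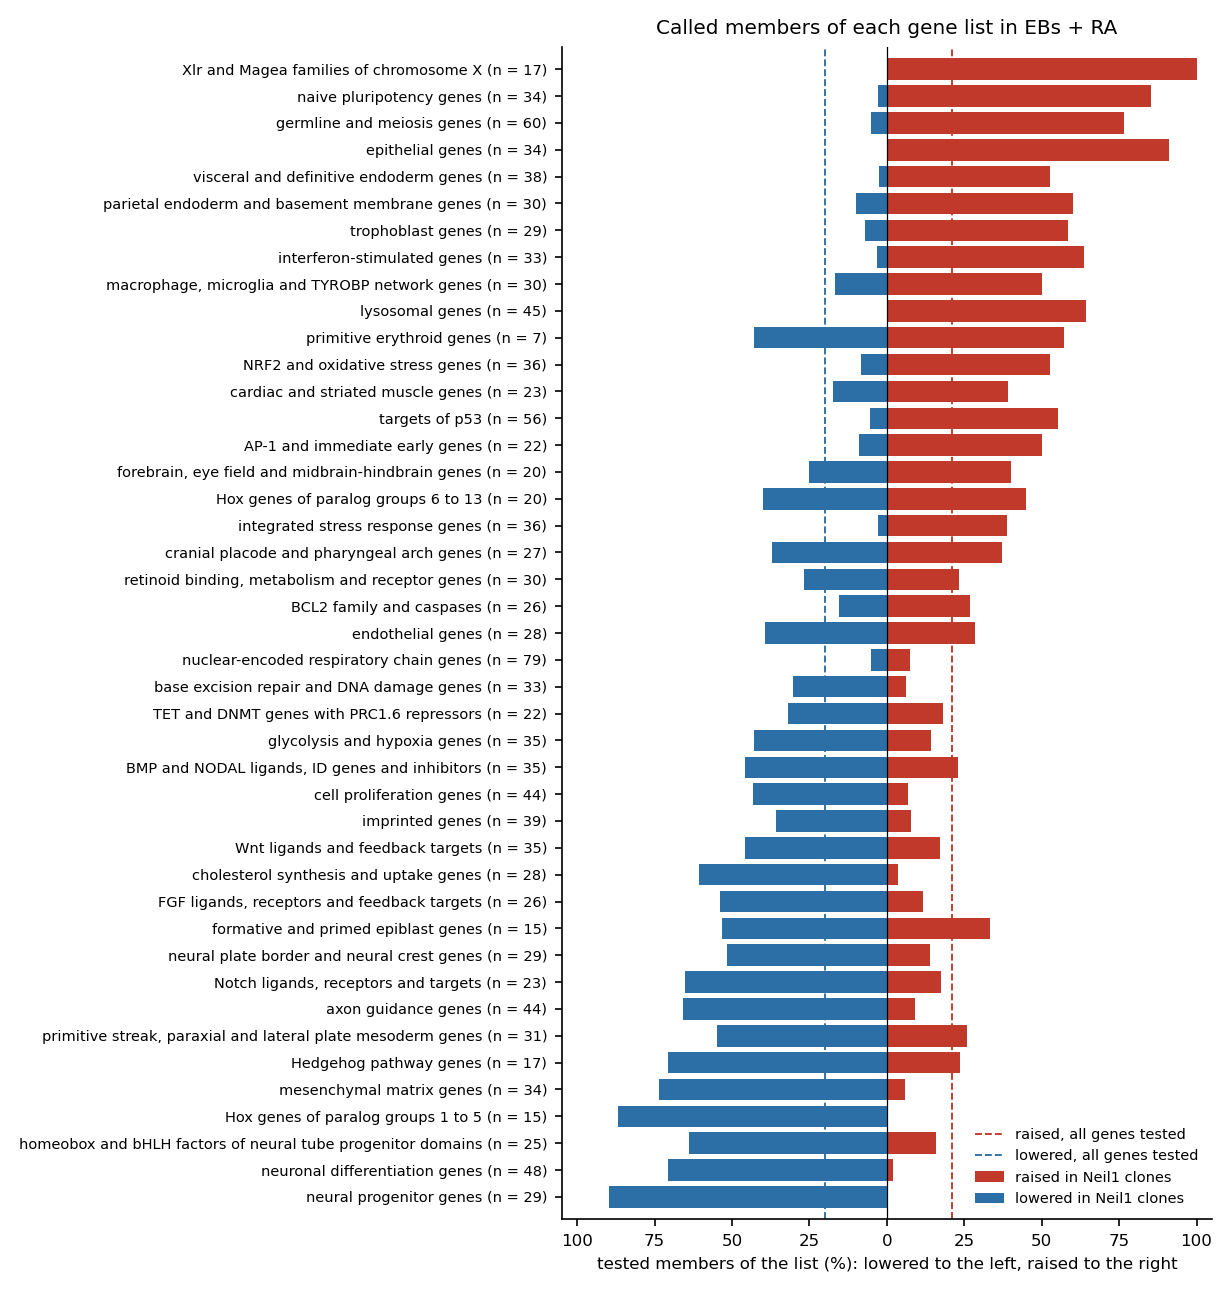
Share of the tested members of each of 43 gene lists that rose (red, to the right) or fell (blue, to the left) in Neil1 mutants against controls in EBs + RA, in percent, with n the number of tested members, ordered from the highest list median to the lowest. Dashed lines mark the shares among all genes tested, 21.2% raised and 19.9% lowered, and the lists of chromosome X families, pluripotency, germline and epithelium stand at the top and those of neural cells at the bottom.

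Outside chromosome X, the 10 genes with the largest rises at a mean log2 CPM of at least 2, with clones that did not overlap, are given first. Sohlh1, a bHLH factor of early oocytes and spermatogonia, was measured at 0.0353, 0.201 and 0.177 CPM in the controls and 2.02, 1.66 and 22.6 in the mutants and led the list (log2FC 5.96 ± 1.29, FDR 0.0106). Its controls rested on 1, 5 and 5 counts, and most of the rise came from Neil1 #11, without which the log2 fold change was 3.72. DESeq2 gave it no adjusted p. Trim43a, a tripartite motif gene of the preimplantation embryo, stood at 0.388, 0.762 and 0.71 CPM in the controls and 8.84, 10.6 and 3.11 in the mutants, a rise of 12.1-fold (log2FC 3.60 ± 0.52, FDR 0.00173). Pramel6 and Pramel7 belong to the PRAME family of the early embryo and were high in the same clones. Pramel6 was at 1.34, 2.09 and 2.13 CPM in the controls and 22.1, 24 and 13.1 in the mutants (log2FC 3.41 ± 0.32, FDR 0.000300). Pramel7 was at 0.917, 1.44 and 0.852 CPM in the controls and 13.3, 13.6 and 6.05 in the mutants (log2FC 3.36 ± 0.40, FDR 0.000780). For both, every mutant clone lay several fold above every control. Trim43 and Pramel genes have close copies in the genome, and since reads aligned to more than 1 place were not counted, the level of a single member is uncertain. Tuba3b, an α-tubulin of the testis, was even across the mutants at 0.776, 1.08 and 1.88 CPM in the controls and 8.84, 8.62 and 13.7 in the mutants (log2FC 3.05 ± 0.38, FDR 0.000982).

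The rule of largest rises also took Prl3d1, a placental lactogen of trophoblast giant cells, which was at 1.94, 2.37 and 2.31 CPM in the controls and 7.05, 4.52 and 49 in the mutants (log2FC 3.19 ± 0.87, FDR 0.0244). Chrdl2, a secreted BMP inhibitor, was at 1.16, 1.81 and 1.6 CPM in the controls and 3.58, 2.28 and 32.1 in the mutants (log2FC 3.05 ± 0.97, FDR 0.041). Both rested mostly on Neil1 #11. Without that library the log2 fold change of Prl3d1 was 1.39 and that of Chrdl2 was 0.94, and without control #1 neither was called (FDR 0.101 and 0.146). Chrdl2 was also lost without control #4 (FDR 0.110). Zg16, a lectin of secretory granules, was at 1.02, 1.73 and 1.06 CPM in the controls and 9.44, 16.3 and 6.39 in the mutants (log2FC 3.08 ± 0.41, FDR 0.00129). The remaining members were AI481877 (log2FC 3.05 ± 0.30, FDR 0.000385) and C130073F10Rik (log2FC 3.05 ± 0.53, FDR 0.00384), for which no function is given here.

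**Figure D2:**
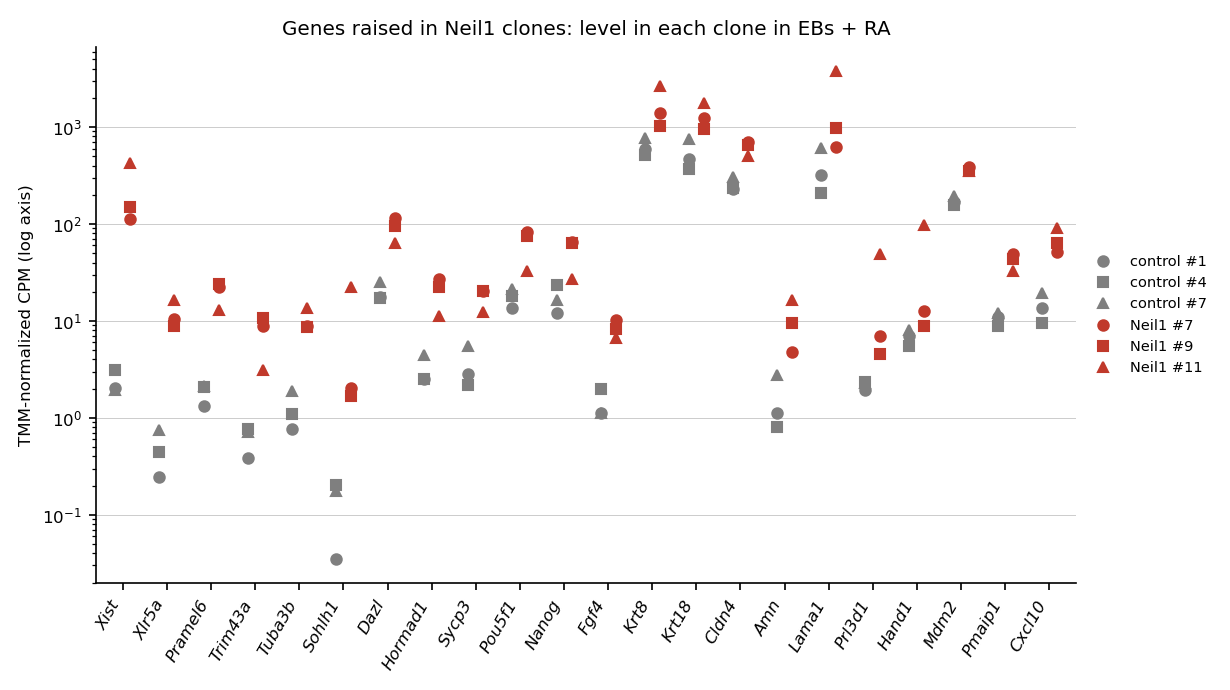
Level of 22 raised genes in each clone in EBs + RA, in TMM-normalized CPM on a log axis, with control clones in gray and Neil1 clones in red and 1 marker per library. The mutant clones lie above the controls for each gene drawn, and Neil1 #11 stands highest for Sohlh1, Lama1, Prl3d1 and Hand1 and lowest of the mutants for Pou5f1, Nanog and Dazl.

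Germline genes rose as a group. Of 66 genes of the germline and of meiosis, 60 were tested, 46 rose, 3 fell and 11 passed in neither direction, with a median log2 fold change of 1.40. The count of raised members was 33 to 47 when each clone was left out in turn. Relative to the control mean, the median over members was 1.33, 1.37 and 1.07 in Neil1 #7, #9 and #11 and −0.16, −0.17 and 0.35 in the controls. Dazl, an RNA-binding protein of germ cells, was at 17.6, 17.3 and 25.1 CPM in the controls and 114, 95.5 and 63 in the mutants (log2FC 2.18 ± 0.25, FDR 0.000660). Every mutant clone was above every control. The Dazl level in the mutants was also above that of the mESCs of the same genotype, 55.3, 48.5 and 55.9 CPM, each stage being normalized on its own. Among the proteins of the synaptonemal complex and the meiotic chromosome axis, Sycp3 was at 2.82, 2.21 and 5.5 CPM in the controls and 20.3, 20.6 and 12.4 in the mutants (log2FC 2.34 ± 0.38, FDR 0.00282). Hormad1 was at 2.54, 2.53 and 4.4 CPM in the controls and 26.8, 22.1 and 11.3 in the mutants (log2FC 2.67 ± 0.38, FDR 0.00159). Sycp1 was 3.92-fold higher (log2FC 1.97 ± 0.26, FDR 0.00121) and Stag3, a meiotic cohesin, 2.5-fold higher (log2FC 1.32 ± 0.17, FDR 0.000995). Of the genes that restrain transposons in the germline, Piwil2 (log2FC 1.56 ± 0.26, FDR 0.00322), Asz1 (log2FC 2.56 ± 0.48, FDR 0.00534) and Tex19.1 (log2FC 1.55 ± 0.24, FDR 0.0024) rose, and without control #7 the log2 fold change of Asz1 was 3.21. Ddx4, the VASA helicase that marks established germ cells, was at 16.1, 11.6 and 20.3 CPM in the controls and 37.4, 29.7 and 14.6 in the mutants and was not called (log2FC 0.77 ± 0.35, FDR 0.112). Beside mESCs of the same clones, these genes were not uniform. Sycp3, Sycp1 and Ddx4 were, like Dazl, above their mESC level in every mutant clone. Hormad1, Piwil2 and Asz1 were below it in every mutant clone, and Stag3 and Tex19.1 were mixed.

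The 250 bases before the start of these genes (RefSeq, GRCm38.p6) were searched on both strands for CACGTG and GCGGGAA, the letters that MGA-MAX and E2F6 recognize. CACGTG was present in 36.8% of the 38 raised germline genes with an entry, in 33.3% of the 54 members of the whole list with an entry, and in 6.05% of all 27025 promoters. GCGGGAA was present in 18.4% of the raised members, 14.8% of the whole list and 3.84% of all promoters. A match shows the letters only. The 2 promoters below are printed as examples, with the matches in capitals (5′ to 3′ on the strand of the gene). They hold 3 CACGTG before Sohlh1 and 2 CACGTG with 1 GCGGGAA before Hormad1. Matches were counted gene by gene for only a few of the genes named. Dazl and Pramel6 had no match in this window.
Sohlh1, chr2:25847249-25847498, minus strand: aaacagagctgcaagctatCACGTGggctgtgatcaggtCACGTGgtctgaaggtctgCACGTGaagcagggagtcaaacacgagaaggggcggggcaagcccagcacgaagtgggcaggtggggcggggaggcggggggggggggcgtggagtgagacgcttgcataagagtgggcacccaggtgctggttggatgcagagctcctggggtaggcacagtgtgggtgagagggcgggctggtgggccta
Hormad1, chr3:95559427-95559676, plus strand: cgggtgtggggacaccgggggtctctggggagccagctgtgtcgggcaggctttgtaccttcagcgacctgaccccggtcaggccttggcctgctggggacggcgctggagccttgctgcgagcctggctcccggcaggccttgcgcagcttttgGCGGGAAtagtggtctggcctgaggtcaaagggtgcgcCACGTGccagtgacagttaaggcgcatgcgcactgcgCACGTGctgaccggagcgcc

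Genes of the pluripotent state were also higher. Of 36 genes of naive pluripotency, 34 were tested, 29 rose and 1 fell, the latter being Gbx2, with a median log2 fold change of 1.57. Pou5f1, which encodes OCT4, was at 13.4, 18.2 and 21.5 CPM in the controls and 83.5, 75.6 and 32.4 in the mutants (log2FC 1.85 ± 0.35, FDR 0.00572). Nanog was at 12.1, 23.6 and 16.5 CPM in the controls and 65.6, 63.6 and 27.4 in the mutants (log2FC 1.59 ± 0.37, FDR 0.0126), and in Neil1 #11 both genes were closer to the controls than in Neil1 #7 and #9. Zfp42, which encodes REX1, was 2.84-fold higher (log2FC 1.50 ± 0.18, FDR 0.000704). Fgf4, an OCT4 and SOX2 target, had the largest rise of the list at 1.13, 1.97 and 1.14 CPM in the controls and 10.3, 8.19 and 6.61 in the mutants (log2FC 2.57 ± 0.33, FDR 0.00105). The F-box gene Fbxo15 (log2FC 2.32 ± 0.33, FDR 0.00186), Klf2 (log2FC 1.99 ± 0.25, FDR 0.000966), Klf4 (log2FC 1.81 ± 0.28, FDR 0.00243), Esrrb (log2FC 1.50 ± 0.42, FDR 0.0254) and the TCL1 oncogene homolog Tcl1 (log2FC 2.21 ± 0.50, FDR 0.0114) rose with them. These levels were a small part of those of mESCs, where Pou5f1 was at 1087, 990.1 and 782 CPM in the mutants and 861, 855 and 874 CPM in the controls. Relative to the control mean, the median over the list was 1.69, 1.75 and 0.77 in Neil1 #7, #9 and #11, and the summed CPM of its members was 703 to 1027 in the controls and 1486 to 2619 in the mutants. How much of the change in other groups goes with these pluripotency genes was not tested. In the formative and primed epiblast list, 5 of 15 tested members rose and 8 fell. Its marker Fgf5 was at 2.86, 2.89 and 1.99 CPM in the controls and 0.729, 0.425 and 0.0432 in the mutants and fell (log2FC −2.63 ± 0.61, FDR 0.0128, and −3.40 without Neil1 #7), whereas Dnmt3b rose (log2FC 0.94 ± 0.16, FDR 0.00384).

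Epithelial genes gave the highest share of raised members among the larger lists. Of 35 genes of epithelial adhesion, junctions and keratins, 34 were tested and 31 rose, with none lowered. The keratins of simple epithelia were among the most abundant transcripts that rose, Krt8 at 588, 521 and 777 CPM in the controls and 1382, 1028 and 2624 in the mutants (log2FC 1.42 ± 0.33, FDR 0.0139). Krt18 was at 472, 367 and 746 CPM in the controls and 1253, 947 and 1754 in the mutants (log2FC 1.32 ± 0.30, FDR 0.0125). Cdh1, which encodes E-cadherin, was at 164, 117 and 182 CPM in the controls and 550.0, 390.3 and 303 in the mutants (log2FC 1.43 ± 0.25, FDR 0.00393). The claudins of tight junctions moved likewise, with Cldn4 at 229.7, 235 and 308 CPM in the controls and 706, 659 and 501 in the mutants (log2FC 1.27 ± 0.18, FDR 0.00171) and Cldn6 2.37-fold higher (log2FC 1.24 ± 0.18, FDR 0.0019). Pkp3, a desmosomal plakophilin, was at 8.99, 6.74 and 12.7 CPM in the controls and 36.8, 34.4 and 63.8 in the mutants (log2FC 2.24 ± 0.31, FDR 0.00152), and each mutant clone was well above each control. Epcam (log2FC 0.82 ± 0.17, FDR 0.00746) and the epithelial regulators Grhl2 (log2FC 1.07 ± 0.20, FDR 0.00526) and Esrp1 (log2FC 0.91 ± 0.15, FDR 0.00281) had smaller rises. Lgals3, a galectin of epithelia and trophoblast, was at 16.5, 15.6 and 19.5 CPM in the controls and 67.2, 37.3 and 251 in the mutants (log2FC 2.79 ± 0.64, FDR 0.0134), and without Neil1 #11 its log2 fold change was 1.6. The epithelial list held its direction in each mutant clone, with medians of 1.20, 1.10 and 1.46 relative to the control mean.

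Extraembryonic genes were higher too, but unevenly between clones. In the visceral and definitive endoderm list, 20 of 38 tested members (of 41) rose and 1, the chemokine receptor Cxcr4, fell. The endocytic receptor genes of the visceral endoderm had large changes, with Amn at 1.13, 0.802 and 2.77 CPM in the controls and 4.74, 9.55 and 16.4 in the mutants (log2FC 2.69 ± 0.58, FDR 0.00947). Cubn was at 78.8, 41.6 and 189.6 CPM in the controls and 281, 482 and 589 in the mutants (log2FC 2.12 ± 0.53, FDR 0.0178). Lrp2, which encodes megalin, was 3.79-fold higher (log2FC 1.92 ± 0.33, FDR 0.00414) and Dab2, its endocytic adaptor, 3.12-fold higher (log2FC 1.64 ± 0.33, FDR 0.00748). The endoderm transcription factors Foxa2 (log2FC 1.61 ± 0.36, FDR 0.0107) and Sox17 (log2FC 1.58 ± 0.33, FDR 0.00797) rose. The secreted markers were less clear. Ttr, the thyroid hormone carrier, rose at 13.4, 7.9 and 39.5 CPM in the controls and 52.7, 94.7 and 97.3 in the mutants (log2FC 2.01 ± 0.55, FDR 0.0256). Afp, the fetal albumin-like protein, was at 20.8, 12.3 and 80.6 CPM in the controls and 74.5, 155 and 92.9 in the mutants and was not called (log2FC 1.50 ± 0.64, FDR 0.101). Hnf4a, a nuclear receptor, at 4.16, 2.53 and 17.1 CPM in the controls and 17.1, 23.5 and 20.9 in the mutants (log2FC 1.37 ± 0.62, FDR 0.118), and Gata6 (log2FC 0.96 ± 0.44, FDR 0.121) were not called either. In these genes control #7 lay above the other controls, within the mutant range for Afp and Gata6. Without control #7, 31 members of the list rose and the log2 fold changes were 3.38 for Amn, 2.93 for Ttr and 2.90 for Cubn, and without control #1 Ttr was not called (FDR 0.109). With no filter on low counts neither Cubn (FDR 0.113) nor Ttr (FDR 0.142) was called.

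The list of parietal endoderm and basement membrane genes rested on Neil1 #11 to a larger degree. Of its 30 members, all tested, 18 rose and 3 fell, but without control #1 or without control #4 only 6 rose, and without Neil1 #11 13 did. Its median relative to the control mean was 0.60, 0.75 and 2.24 in Neil1 #7, #9 and #11. The laminin chain Lama1 was at 318, 208 and 602 CPM in the controls and 617, 981 and 3755 in the mutants (log2FC 2.25 ± 0.69, FDR 0.0368). Col4a1, a chain of collagen IV, was at 762, 429.5 and 1645 CPM in the controls and 1562, 2264 and 7399 in the mutants (log2FC 1.98 ± 0.67, FDR 0.0492). Neil1 #11 was the highest library for both, and Neil1 #7 lay next to control #7, below it for Col4a1. Without Neil1 #11 the log2 fold change was 1.08 for Lama1 and 1.01 for Col4a1, the second no longer called (FDR 0.117), and without control #1 neither was called (FDR 0.136 and 0.167). Without control #4 neither was called either (FDR 0.122 and 0.144), and without control #7 the log2FC of Col4a1 was 2.65. Sparc, the osteonectin gene, was at 1182, 797 and 2236 CPM in the controls and 1629, 2213 and 6404 in the mutants and was not called (log2FC 1.28 ± 0.56, FDR 0.104). The X-linked collagen IV chains went the other way. Col4a5 was at 40.1, 31.8 and 31.6 CPM in the controls and 8.21, 8.97 and 3.24 in the mutants (log2FC −2.34 ± 0.35, FDR 0.00205). Col4a6 was at 6.81, 5.74 and 5.18 CPM in the controls and 0.795, 0.618 and 0.475 in the mutants (log2FC −3.21 ± 0.31, FDR 0.000338).

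Trophoblast genes showed the same dependence on clone. Of 30 genes, 29 were tested, 17 rose and 2 fell, and 10 rose without control #1. The median relative to the control mean was 0.94, 0.35 and 2.12 in Neil1 #7, #9 and #11. Hand1, a bHLH factor of trophoblast giant cells and of lateral mesoderm, was at 7.05, 5.5 and 8.09 CPM in the controls and 12.7, 8.77 and 97.5 in the mutants (log2FC 2.52 ± 0.85, FDR 0.0506), with a log2 fold change of 0.63 without Neil1 #11 and no call without control #1 (FDR 0.153) or control #4 (FDR 0.151). Ascl2, a bHLH factor of the ectoplacental cone, was at 3.53, 2.53 and 3.62 CPM in the controls and 8.51, 9.01 and 23.6 in the mutants (log2FC 2.08 ± 0.43, FDR 0.00749) and had a log2 fold change of 1.43 without Neil1 #11. Tfap2c, shared by trophoblast and germ cells, rose more evenly at 37, 37.8 and 56.8 CPM in the controls and 113, 73.6 and 189 in the mutants (log2FC 1.51 ± 0.34, FDR 0.011). Eomes, which marks trophoblast stem cells and early mesendoderm, was at 2.86, 3.77 and 3.94 CPM in the controls and 9.41, 7.65 and 5.88 in the mutants (log2FC 1.12 ± 0.27, FDR 0.0146). The trophoblast marker Gata3 was at 28.9, 33.2 and 37.8 CPM in the controls and 36.4, 31.1 and 67.1 in the mutants and was not called (log2FC 0.43 ± 0.28, FDR 0.251).

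**Figure D3:**
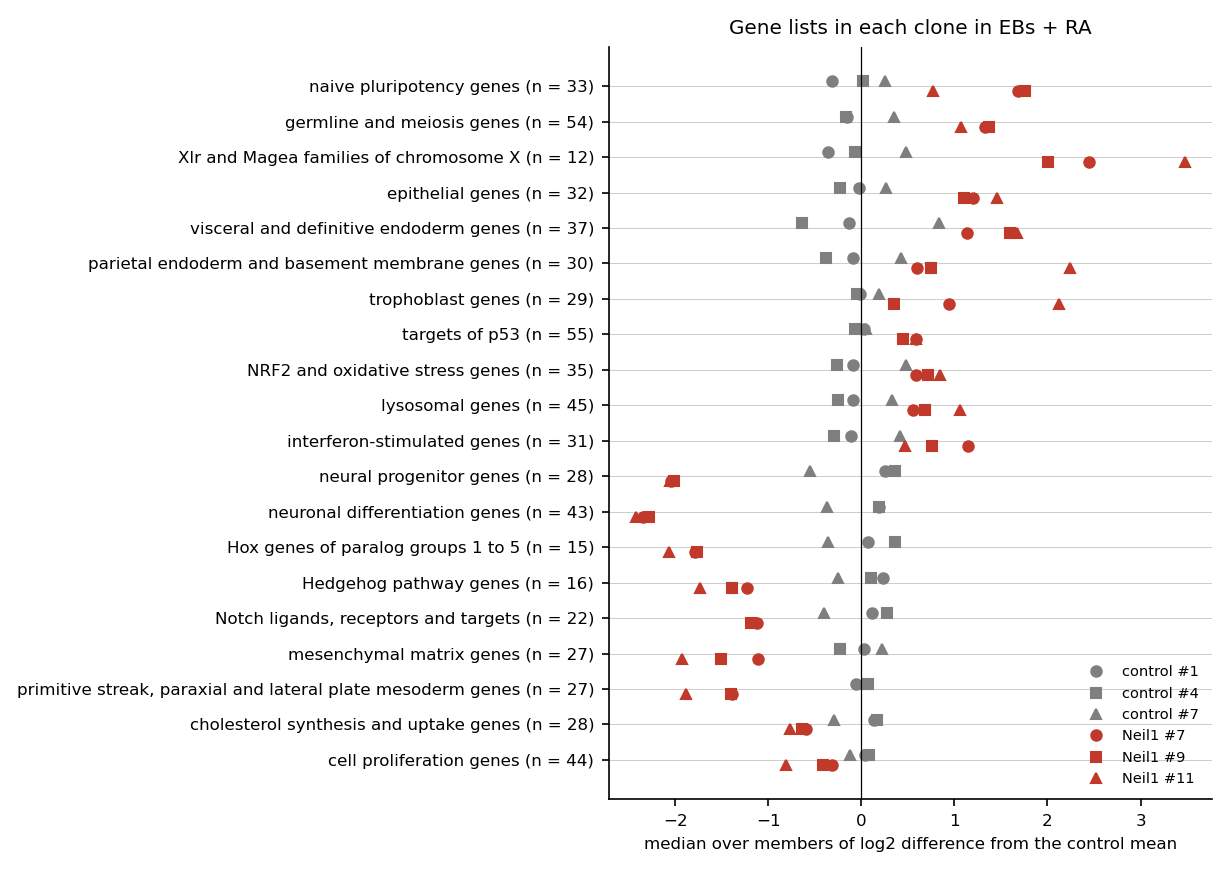
Median over the members of 20 gene lists of the log2 difference from the mean of the controls, per clone in EBs + RA, for the members averaging 1 CPM or more (n). Controls are gray and Neil1 clones red, and Neil1 #11 stands apart upward in the basement membrane, trophoblast and Xlr and Magea lists and is the lowest mutant in the pluripotency list, while the neural lists place the 3 mutant clones together near −2.

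Stress-response genes rose in part. Of 57 targets of p53, 56 were tested, 31 rose and 3 fell, with a median log2 fold change of 0.66, and 23 to 31 rose when each clone was left out in turn. Mdm2, the ubiquitin ligase that limits p53, was at 167, 158 and 194 CPM in the controls and 389, 349.6 and 355 in the mutants (log2FC 1.08 ± 0.13, FDR 0.000972). Pmaip1, which encodes the BH3-only protein NOXA, was at 10.9, 8.91 and 12.2 CPM in the controls and 49.2, 43.8 and 32.5 in the mutants (log2FC 1.97 ± 0.21, FDR 0.000480). Gdf15, a stress-induced cytokine, was at 0.282, 0.401 and 0.426 CPM in the controls and 2.19, 3.01 and 4.41 in the mutants (log2FC 3.10 ± 0.39, FDR 0.00103). The mutant clones lay apart from the controls in each of these genes. Cdkn1a, the cell cycle inhibitor p21, had a smaller rise at 122, 108 and 130.2 CPM in the controls and 169, 186 and 285 in the mutants (log2FC 0.83 ± 0.21, FDR 0.0161). Ccng1 (log2FC 0.95 ± 0.15, FDR 0.00264), Bbc3, which encodes PUMA (log2FC 0.78 ± 0.16, FDR 0.00767), and the membrane protein Perp (log2FC 1.44 ± 0.21, FDR 0.0019) rose as well. Eda2r, a death receptor of the list, was 3.28-fold higher (log2FC 1.71 ± 0.18, FDR 0.000488), but it lies on chromosome X between 60 and 110 Mb, where many genes rose, and its change was as large without RA (log2FC 1.75 ± 0.18, FDR 0.000185 in EBs). Bax, the pore-forming effector, was at 190.1, 237 and 199 CPM in the controls and 239, 282 and 271 in the mutants and did not reach the fold limit (log2FC 0.34 ± 0.14, FDR 0.0897). In the list of BCL2 family genes and caspases, 7 of 26 tested members rose and 4 fell, among the latter the anti-apoptotic Bcl2 (log2FC −1.90 ± 0.33, FDR 0.00365).

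In the integrated stress response, 14 of 36 tested members rose and 1 fell. Ddit3, which encodes the factor CHOP, was at 10.9, 12.3 and 13.9 CPM in the controls and 40.7, 45.7 and 38.9 in the mutants (log2FC 1.75 ± 0.16, FDR 0.000281), and Nupr1 was 4.91-fold higher (log2FC 2.30 ± 0.37, FDR 0.0027). Of the genes of NRF2 and oxidative stress, 19 of 36 tested members rose and 3 fell, but without control #4 (replicate 2) 9 rose, and 11 rose without control #1 or without Neil1 #11. Gclm, a subunit of the enzyme that makes glutathione, was at 67.8, 53.5 and 103 CPM in the controls and 188, 183 and 238 in the mutants (log2FC 1.44 ± 0.24, FDR 0.00331). Hmox1, heme oxygenase, was at 124, 101 and 196 CPM in the controls and 270.2, 259 and 611 in the mutants (log2FC 1.44 ± 0.38, FDR 0.0217). The metallothioneins, which bind metals and are induced by metals and oxidants, had a larger change. Mt1 was at 95.7, 108 and 202 CPM in the controls and 352, 715 and 627 in the mutants (log2FC 2.06 ± 0.35, FDR 0.0039). Mt2 was at 111, 124 and 224 CPM in the controls and 458, 807 and 700.5 in the mutants (log2FC 2.10 ± 0.31, FDR 0.00217).

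Interferon-stimulated and antigen presentation genes were higher in the mutants, 21 of 33 tested members with 1 lowered. The count was 12 without control #1. Cxcl10, a chemokine induced by interferon, was at 13.7, 9.51 and 19.2 CPM in the controls and 50.9, 64.1 and 90.6 in the mutants (log2FC 2.27 ± 0.30, FDR 0.0012). The class I antigen presentation genes had modest and even rises, H2-K1 at 86.3, 73.1 and 88.7 CPM in the controls and 144, 168 and 155 in the mutants (log2FC 0.91 ± 0.14, FDR 0.00194). Tap1 was at 15.6, 12.4 and 18 CPM in the controls and 38.2, 45.5 and 38.2 in the mutants (log2FC 1.40 ± 0.18, FDR 0.00113), and B2m was 1.67-fold higher (log2FC 0.74 ± 0.20, FDR 0.0218). Isg15, a ubiquitin-like effector, was at 2.15, 2.45 and 5.64 CPM in the controls and 8.68, 9.82 and 1.81 in the mutants and was not called (log2FC 0.99 ± 0.61, FDR 0.232). Neil1 #11 was below all controls and the other mutants above them. Lysosomal genes rose in 29 of 45 cases with none lowered, and in 15 without control #1 and 17 without control #4. Examples are the membrane protein Lamp1 (log2FC 0.97 ± 0.18, FDR 0.00541) and the protease cathepsin D, Ctsd (log2FC 1.11 ± 0.25, FDR 0.0119).

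Of 49 genes of macrophages, microglia and the TYROBP network, 30 were tested, 15 rose and 5 fell. Those that rose included Csf1r, the receptor of the macrophage growth factor and also expressed in trophoblast, at 4.34, 3.25 and 4.19 CPM in the controls and 13.2, 12.1 and 45.9 in the mutants (log2FC 2.59 ± 0.52, FDR 0.00751, and 1.68 without Neil1 #11), the lysosomal glycoprotein Cd68 (log2FC 1.45 ± 0.27, FDR 0.00516) and Spi1 (Sfpi1 in NCBIM37), the myeloid factor PU.1, at 0, 0.12 and 0.177 CPM in the controls and 0.596, 0.734 and 0.475 in the mutants (log2FC 2.56 ± 0.68, FDR 0.0209). The Spi1 levels rest on few counts, and its log2FC was 1.97 without control #1 and 3.30 without control #7. The defining genes of mature macrophages Tyrobp, Trem2, Ptprc and C1qa to C1qc were too low to be tested, at 0.173 CPM or less in every library.

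Ranked by transcript abundance per kb of exon (RPKM, here CPM per kb), the 8 largest gains among DE genes whose clones did not overlap included metallothioneins and simple keratins. Sparc, which was not called, went from 417 to 1014 RPKM, a larger gain than most of these. Mean RPKM went from 275 to 1178 for Mt2, from 233 to 868 for the fatty acid binding protein Fabp3, from 378 to 942 for Krt18 and from 348 to 929.7 for Krt8. Mt1, the pluripotency-associated Dppa5a (log2FC 1.92 ± 0.40, FDR 0.0093), Cyp26a1 and cathepsin L, Ctsl (log2FC 1.32 ± 0.34, FDR 0.0192), completed the 8. The 8 largest losses under the same limits were of abundant transcripts. The elongation factor Eef1a1 went from 3477 to 2284 RPKM (log2FC −0.61 ± 0.16, FDR 0.0211), prothymosin, Ptma, from 2321 to 1346 (log2FC −0.79 ± 0.18, FDR 0.0132) and the β-tubulin Tubb5 from 807 to 336 (log2FC −1.27 ± 0.14, FDR 0.000611). Of the ribosomal proteins, Rpl3 (log2FC −0.65 ± 0.14, FDR 0.00909) and Rpsa (log2FC −0.61 ± 0.17, FDR 0.0236) were among them, as were Mif (log2FC −0.85 ± 0.21, FDR 0.0159), the glycolytic Gapdh (log2FC −0.86 ± 0.17, FDR 0.00624) and Pkm, named Pkm2 in NCBIM37 (log2FC −1.19 ± 0.14, FDR 0.000632). Without Neil1 #11, Eef1a1 and Rpsa were just inside the fold limit at −0.47 and −0.46 and so not called.

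The named genes with the deepest falls were mostly neural. Each was expressed in all 3 controls and close to absent in all mutants, with control #7 the lowest control. Dbx1, a homeobox gene of interneuron progenitors in the neural tube, had 2245, 2279 and 486 counts in the controls and 3, 1 and 2 counts in the mutants. That is 79.2, 91.4 and 17.2 CPM in the controls and a log2 fold change of −9.61 ± 0.88 (FDR 0.000349). Miat, a long noncoding RNA of the nervous system, had 2210, 2564 and 1155 counts in the controls and 10, 10 and 2 counts in the mutants (log2FC −8.04 ± 0.52, FDR 9.46e-05). Neurog1, a proneural bHLH factor, had 555, 468 and 240 counts in the controls and 2, 0 and 3 counts in the mutants (log2FC −7.84 ± 0.64, FDR 0.000175). Nhlh2, a bHLH factor of newborn neurons, had 1146, 992 and 597 counts in the controls and 7, 7 and 2 counts in the mutants (log2FC −7.36 ± 0.43, FDR 8.09e-05). At so few counts the fitted fold change of a mutant library depends on the prior count, and the log2 fold changes of Neurog1 and 2610017I09Rik moved to −8.61 and −8.83 without Neil1 #11, the second also to −6.87 without Neil1 #7. The others of this group were Tfap2b (Tcfap2b in NCBIM37), a crest and interneuron factor, which had a log2 fold change of −8.87 without Neil1 #9, Klhl14, which had −9.11 without Neil1 #7, 4930426D05Rik, which had −8.02 without Neil1 #7, and 2610017I09Rik. Their values over all 6 libraries were −8.18, −7.99, −7.21 and −7.51.

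Most neural progenitor genes fell. All 29 neural progenitor genes were tested, and 26 fell and none rose, with a median log2 fold change of −2.73. Pax6, the paired homeobox gene of neuroectoderm, was at 136, 136 and 51.2 CPM in the controls and 7.42, 5.02 and 3.93 in the mutants (log2FC −4.30 ± 0.43, FDR 0.000479). Nes, the intermediate filament nestin, was at 167, 137 and 127 CPM in the controls and 29.1, 19.7 and 12.4 in the mutants (log2FC −2.81 ± 0.30, FDR 0.000469). Both markers were present in all 3 controls, which checks the neural differentiation expected from the label at the level of RNA. Of the 48 tested genes of neuronal differentiation (of 56), 34 fell and 1 rose. Tubb3, neuronal β-tubulin, was at 121, 131 and 66.1 CPM in the controls and 14.9, 12.6 and 28.5 in the mutants (log2FC −2.51 ± 0.37, FDR 0.00203). Elavl3, which encodes HuC, was at 30.5, 35.6 and 17.8 CPM in the controls and 4.54, 5.14 and 4.62 in the mutants (log2FC −2.55 ± 0.28, FDR 0.000508). Dcx, doublecortin, was at 35.6, 28.9 and 27.5 CPM in the controls and 0.596, 0.386 and 0.216 in the mutants (log2FC −6.21 ± 0.34, FDR 5.47e-05). No mutant value reached a control value in these 5 genes. Relative to the control mean, the neural progenitor list was at −2.05, −2.01 and −2.05 in the mutants and at 0.25, 0.36 and −0.55 in the controls, and the neuronal list at −2.35, −2.28 and −2.42 in the mutants. Of the homeobox and bHLH factors that divide the neural tube into domains, 16 of 25 tested members (of 36) fell and 4 rose, with the dorsal Msx3 (log2FC −4.83 ± 0.49, FDR 0.000432, and −5.45 without Neil1 #9) and the ventral Olig2 at 1.66, 0.602 and 0.781 CPM in the controls and 0.0994, 0 and 0.0864 in the mutants (log2FC −3.92 ± 0.73, FDR 0.00527) on the same side. Forebrain and midbrain-hindbrain genes were mixed, with 8 raised and 5 lowered of 20 tested. The raised ones were 4 without control #1 or control #4 and 5 without Neil1 #9.

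Genes of the RA pathway changed in both directions, at shares near those of all genes tested. Over the whole list of 30 genes, 7 rose and 8 fell. The binding proteins Crabp1 and Crabp2 fell, Crabp1 at 227, 257 and 176 CPM in the controls and 5.00, 6.07 and 3.02 in the mutants (log2FC −5.54 ± 0.29, FDR 5.47e-05). Crabp2 was at 531, 453 and 274 CPM in the controls and 87.8, 75.2 and 30.7 in the mutants (log2FC −2.70 ± 0.41, FDR 0.00243). Aldh1a2, the enzyme that makes RA in the embryo, was at 98.5, 96 and 99.3 CPM in the controls and 4.54, 6.49 and 3.2 in the mutants and fell (log2FC −4.36 ± 0.25, FDR 7.98e-05). Cyp26a1, the RA-induced enzyme that degrades RA, was at 639.5, 564 and 879.6 CPM in the controls and 1168, 1418 and 1965 in the mutants and rose (log2FC 1.13 ± 0.23, FDR 0.00803), and it was abundant in both genotypes. Of the receptors, the RA-induced Rarb fell (log2FC −0.78 ± 0.15, FDR 0.00638) and Rarg rose (log2FC 1.01 ± 0.23, FDR 0.0107). Of the targets of RA, 13 of the 15 Hox genes of paralog groups 1 to 5 fell and none rose. Hoxc5 was at 153, 165 and 132 CPM in the controls and 9.47, 9.08 and 3.93 in the mutants (log2FC −4.31 ± 0.32, FDR 0.000124). Hoxd3 was at 61.1, 72.8 and 26.3 CPM in the controls and 2.38, 3.01 and 0.864 in the mutants (log2FC −4.66 ± 0.53, FDR 0.000735). Hoxa2 was at 60.6, 66.3 and 39.9 CPM in the controls and 18.1, 22.7 and 20.0 in the mutants (log2FC −1.46 ± 0.21, FDR 0.00177). The posterior groups 6 to 13 were split along the clusters, with 8 lowered and 9 raised of 20 tested. The lowered ones were of groups 6 to 9, such as Hoxc6 at 38.1, 33.3 and 19.8 CPM in the controls and 0.927, 0.928 and 0.691 in the mutants (log2FC −5.15 ± 0.32, FDR 8.61e-05) and Hoxb9 (log2FC −2.32 ± 0.26, FDR 0.000618), and the raised ones of groups 9 to 13, such as Hoxd13 at 0.917, 0.401 and 1.24 CPM in the controls and 5.13, 3.83 and 2.64 in the mutants (log2FC 2.17 ± 0.45, FDR 0.00769). Hoxa10 was at 0.458, 0.361 and 0.461 CPM in the controls and 2.42, 2.36 and 1.77 in the mutants (log2FC 2.34 ± 0.32, FDR 0.00145). The raised posterior genes stayed low in absolute level, and when genes with at least 10 counts in every library were tested, 5 of them rose.

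Signaling lists held more lowered than raised members. Of the Notch genes, 15 of 23 tested members fell and 4 rose. The ligand Dll1 was at 29.6, 27.4 and 9.23 CPM in the controls and 3.51, 4.48 and 1.34 in the mutants (log2FC −2.82 ± 0.54, FDR 0.00633). The glycosyltransferase Lfng was at 13.5, 14.8 and 5.93 CPM in the controls and 1.29, 0.966 and 1.21 in the mutants (log2FC −3.30 ± 0.39, FDR 0.000773). The target Hes5, a repressor of neuronal genes, was at 9.84, 12.7 and 4.36 CPM in the controls and 0.166, 0.193 and 0.0864 in the mutants (log2FC −5.85 ± 0.54, FDR 0.000283). Of the Hedgehog pathway, 12 of 17 fell and 4 rose, the lowered ones including the coreceptor Boc (log2FC −3.58 ± 0.25, FDR 0.000101) and the feedback target Ptch1 (log2FC −1.70 ± 0.27, FDR 0.00248). Gli1, a transcription factor and target of the pathway, was at 50.4, 59.9 and 19.6 CPM in the controls and 6.56, 9.01 and 10.5 in the mutants (log2FC −2.32 ± 0.40, FDR 0.00400). In the Wnt list 16 of 35 fell and 6 rose, with the inhibitor Sfrp1 at 224, 164 and 187 CPM in the controls and 14.2, 12.2 and 16.1 in the mutants (log2FC −3.76 ± 0.18, FDR 4.46e-05) and the target Axin2 (log2FC −1.50 ± 0.35, FDR 0.0139). The FGF list had 14 lowered and 3 raised of 26, and Dusp6, a feedback phosphatase of ERK signaling, was at 109, 92.8 and 99.7 CPM in the controls and 39.4, 31.9 and 23 in the mutants (log2FC −1.68 ± 0.20, FDR 0.000801). In the BMP and NODAL list, 16 of 35 fell and 8 rose, with Bmp4 lowered (log2FC −1.88 ± 0.31, FDR 0.00301) and Bmp2 raised (log2FC 1.27 ± 0.36, FDR 0.0272). The Wnt and BMP lists were already lower without RA, with medians of −1.71 and −1.03 in EBs. With RA, 18 Wnt genes had a more positive and 3 a more negative change, and 17 and 5 BMP and NODAL genes respectively. Axon guidance genes fell in 29 of 44 cases and rose in 4, and the netrin receptor gene Unc5a was at 62.3, 74.9 and 28.2 CPM in the controls and 1.16, 1.28 and 0.951 in the mutants (log2FC −5.60 ± 0.41, FDR 0.000110).

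Mesodermal and mesenchymal genes were lower as well. Of the 31 tested genes of primitive streak, paraxial and lateral plate mesoderm (of 38), 17 fell and 8 rose, and Meox1, a somite homeobox gene, was at 35.5, 38.2 and 35.3 CPM in the controls and 2.25, 2.09 and 1.94 in the mutants (log2FC −4.11 ± 0.18, FDR 3.48e-05). Mixl1, a primitive streak marker, was at 0.282, 0.321 and 0.71 CPM in the controls and 1.06, 0.734 and 0.691 in the mutants and was not called (log2FC 0.92 ± 0.45, FDR 0.137). Of the 34 tested genes of mesenchymal matrix, 25 fell and 2 rose. The fibrillar collagens were among the most lowered, with Col1a1 at 56.3, 42.5 and 87.4 CPM in the controls and 1.89, 1.47 and 1.04 in the mutants (log2FC −5.39 ± 0.35, FDR 9.46e-05). Col3a1 was at 107, 103 and 113 CPM in the controls and 2.25, 1.89 and 3.67 in the mutants (log2FC −5.37 ± 0.26, FDR 4.46e-05). Vim, which encodes vimentin of mesenchymal and neural progenitor cells, was at 637, 675 and 397 CPM in the controls and 48.5, 39.8 and 54 in the mutants (log2FC −3.59 ± 0.24, FDR 9.46e-05). Endothelial genes were divided, 8 raised and 11 lowered of 28, with the VEGF receptor Kdr lowered (log2FC −2.54 ± 0.29, FDR 0.000660) and the adhesion gene Pecam1, also expressed in pluripotent cells, raised (log2FC 1.66 ± 0.29, FDR 0.00369). Cardiac and striated muscle genes had 9 raised and 4 lowered of 23 tested, and the raised ones were 5 without control #1 and 4 without control #4.

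Proliferation and biosynthesis genes had smaller falls. Of 44 proliferation genes, 19 fell and 3 rose, with the topoisomerase Top2a at 554, 539 and 554 CPM in the controls and 362, 325 and 272 in the mutants (log2FC −0.78 ± 0.14, FDR 0.0045). The D cyclins fell far more, Ccnd2 at 573, 435 and 206 CPM in the controls and 25.9, 24.7 and 26.9 in the mutants (log2FC −3.97 ± 0.36, FDR 0.000281). Ccnd1 was at 67.8, 43.7 and 26.2 CPM in the controls and 5.96, 5.22 and 5.31 in the mutants (log2FC −3.06 ± 0.33, FDR 0.000521). Cholesterol synthesis and uptake genes fell in 17 of 28 cases and rose in 1, with a median log2 fold change of −0.61. Scd2, a fatty acid desaturase of neural tissue and not a cholesterol enzyme, fell further. It was at 1017, 938 and 737 CPM in the controls and 162, 126 and 191 in the mutants (log2FC −2.49 ± 0.20, FDR 0.000166). Glycolysis and hypoxia genes fell in 15 of 35 and rose in 5, with Eno1, enolase, at 1204, 1127 and 782 CPM in the controls and 312, 337 and 302 in the mutants (log2FC −1.71 ± 0.18, FDR 0.000480). Of 79 nuclear-encoded genes of the respiratory chain, 6 rose and 4 fell, with a median of −0.13, and 2 rose without control #1.

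In base excision repair and the DNA damage response, 10 of 33 genes fell, Neil1 included, and 2 rose. The paralog Neil2 was at 3.63, 4.21 and 4.83 CPM in the controls and 9.84, 9.01 and 8.64 in the mutants and rose (log2FC 1.12 ± 0.22, FDR 0.00661). Smug1, a uracil glycosylase, was at 84.8, 91.6 and 60.1 CPM in the controls and 19.3, 18.8 and 16.1 in the mutants (log2FC −2.12 ± 0.19, FDR 0.000238), and Apex1, the abasic site endonuclease, was at 13.5, 14.7 and 15.4 CPM in the controls and 8.48, 5.18 and 4.75 in the mutants (log2FC −1.24 ± 0.26, FDR 0.00838), both lower in every mutant clone. Polg, the mitochondrial DNA polymerase, was 2.31-fold higher (log2FC 1.21 ± 0.18, FDR 0.00212). Of the genes that write and erase DNA methylation, Dnmt3l, the cofactor of germ cells and mESCs, rose (log2FC 1.71 ± 0.28, FDR 0.00283), whereas Dnmt3a (log2FC −0.91 ± 0.12, FDR 0.00122) and Tet3 (log2FC −1.08 ± 0.16, FDR 0.00216) fell. Of 39 imprinted genes, 14 fell and 3 rose. Peg3 was at 1591, 2596 and 2638 CPM in the controls and 1107, 944 and 1467 in the mutants (log2FC −0.96 ± 0.24, FDR 0.016). Nnat was at 42.8, 363 and 237 CPM in the controls and 15.9, 12.8 and 10.5 in the mutants (log2FC −4.03 ± 0.69, FDR 0.00423). It differed several fold between the controls and had a log2FC of −3.43 without control #4.

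The change with genotype in the same clones without RA overlapped in part with that in EBs + RA. Of the 3390 genes raised in EBs + RA, 835 (24.6%) were also raised in EBs and 245 were lowered there, against 10.4% of tested genes raised and 13.1% lowered in EBs. Of the 3190 lowered genes, 870 (27.3%) were also lowered in EBs and 154 were raised there. The interaction of genotype and RA was called at an FDR below 0.1 alone, with no fold limit. It was called for 5374 of 16706 genes (32.2%), of which 2896 were more positive with RA (17.3%) and 2478 more negative (14.8%). The interaction calls rest on the controls, since 2859 were left without control #1 and 2582 without control #4.

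The lists differed in how far their change depended on RA. Pluripotency and germline genes were already higher without RA, with medians of 0.70 and 0.58 over members tested in both, and 14 of the pluripotency genes and 23 of the germline genes had a more positive change with RA. Epithelial genes were near the controls in EBs (median 0.18) and 28 of 35 tested had a more positive change with RA. Krt8 was at 683, 1063 and 824 CPM in the controls and 244, 251 and 406 in the mutants in EBs, a fall there (log2FC −1.51 ± 0.25, FDR 0.00454) and a rise with RA, and the difference was 2.95 (FDR 0.00149). Visceral endoderm (17 of 40 more positive, none more negative) and interferon-stimulated genes (22 of 34 more positive, 1 more negative) likewise changed with RA. Of the p53 targets 21 were more positive and 1 more negative with RA, and Pmaip1 was at 59.3, 54.5 and 59.6 CPM in the controls and 52, 52 and 60.9 in the mutants in EBs and was not called there (log2FC −0.07 ± 0.10, FDR 0.625). The difference for Pmaip1 was 2.06 (FDR 6.48e-05).

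The medians of the neural progenitor and neuronal lists were near 0 without RA. Over the members tested in both, the median log2 fold change of the neural progenitor list was 0.09 in EBs, with 8 raised and 9 lowered of 26 tested there, and −2.73 in EBs + RA, and 18 members had a more negative change with RA and none a more positive one. Nes fell in both conditions (log2FC −1.13 ± 0.16, FDR 0.000628 in EBs). Pax6 was higher in the mutants without RA, at 0.616, 1.03 and 0.907 CPM in the controls and 3.03, 2.5 and 7.28 in the mutants (log2FC 2.36 ± 0.43, FDR 0.00302), at a level far below that reached with RA, and the difference was −6.66 (FDR 0.000111). Of the neuronal genes 32 of 50 were more negative and 2 more positive with RA. Posterior Hox genes went the other way, since 17 of 22 had a more positive change with RA and none a more negative one. Hoxa9 was at 15, 11.9 and 5.79 CPM in the controls and 0.0473, 0.154 and 0.177 in the mutants in EBs (log2FC −6.33 ± 0.50, FDR 2.6e-05) and at 0.705, 0.401 and 0.993 CPM in the controls and 1.09, 1.7 and 1.47 in the mutants in EBs + RA (log2FC 1.01 ± 0.40, FDR 0.0788) (each stage was normalized on its own). The controls were thus the higher group without RA and the lower one with it, at low levels in both genotypes with RA. That rise in EBs + RA was not called without control #1 (FDR 0.194), control #4 (FDR 0.243), Neil1 #9 (FDR 0.202) or Neil1 #11 (FDR 0.114). Cdx2, which drives posterior Hox genes and trophoblast, was likewise at 78, 72.6 and 46.3 CPM in the controls and 1.61, 1.19 and 1.55 in the mutants in EBs (log2FC −5.50 ± 0.24, FDR 1.28e-06) against 3.99, 2.29 and 1.88 CPM in the controls and 4.07, 3.98 and 8.34 in the mutants with RA (log2FC 1.00 ± 0.41, FDR 0.086), a call that was lost without control #4 (FDR 0.223), control #7 (FDR 0.190) or Neil1 #11 (FDR 0.240). Mesenchymal and mesodermal lists were lower in the mutants in both conditions, with medians of −1.98 and −1.79 in EBs.

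**Figure D4:**
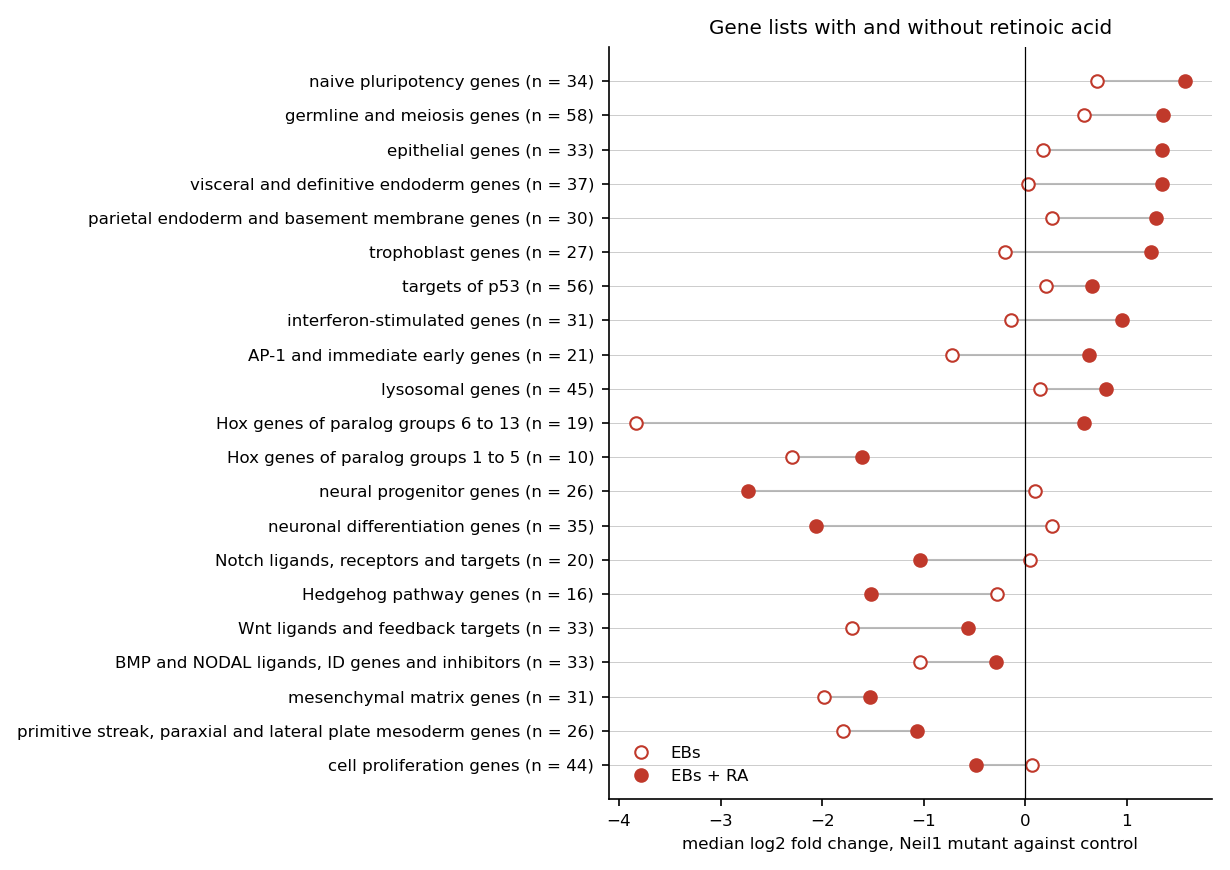
Median log2 fold change of Neil1 mutants against controls in EBs (open circles) and EBs + RA (filled circles) for 21 gene lists, over the members tested in both conditions (n). Epithelial, trophoblast and interferon lists are near 0 without RA and near or above 1 with it, the neural progenitor and neuronal lists are near 0 without RA and below −2 with it, and the mesenchymal and mesodermal lists are below −1 in both.

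Raised genes were unevenly spread over chromosomes. On chromosome X 209 of 606 tested genes rose (34.5%), against 3174 of 15385 on autosomes (20.6%). The excess lay between 60 and 110 Mb in NCBIM37, where 127 of 216 tested genes rose (58.8%, median log2 fold change 0.79), and the rest of the chromosome had 82 raised of 390 (21%, median −0.19). Among genes averaging 5 CPM or more, the median difference from the controls over this segment was 0.78, 0.70 and 0.27 in Neil1 #7, #9 and #11, and over the rest of the chromosome −0.10, −0.27 and −0.60. Neil1 #11 was the lowest mutant by both medians. In windows of 10 Mb it was not lower throughout, being the highest mutant between 0 and 10 Mb and between 50 and 60 Mb. Without RA the segment was at 0.91, 0.89 and 0.82 and the rest at −0.08, −0.07 and −0.08, with no such difference for Neil1 #11. In undifferentiated mESCs the segment was already at 0.94 and 0.96 in Neil1 #7 and #9. It was at −6.16 in Neil1 #11, the mESC library with few counts on X and none on Y. There the loss was not confined to the segment, and the rest of X was at −1.09. Its windows of 10 Mb were between −6.58 and −5.28 from 60 to 170 Mb. Before 60 Mb they were between −0.05 and 0.14. In EBs + RA the median over chromosome 9 was −0.32 in Neil1 #11 and −0.03 and −0.04 in Neil1 #7 and #9. With autosomal genes alone in the fit, 6203 genes were DE, of which 6190 were among the 6580. In EBs + RA the controls were at 0.05, −0.02 and −0.02 over the segment. Since every mutant clone and no control had it raised, changes that go with the segment and with the Neil1 mutation cannot be told apart, on autosomes as well.

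**Figure D5:**
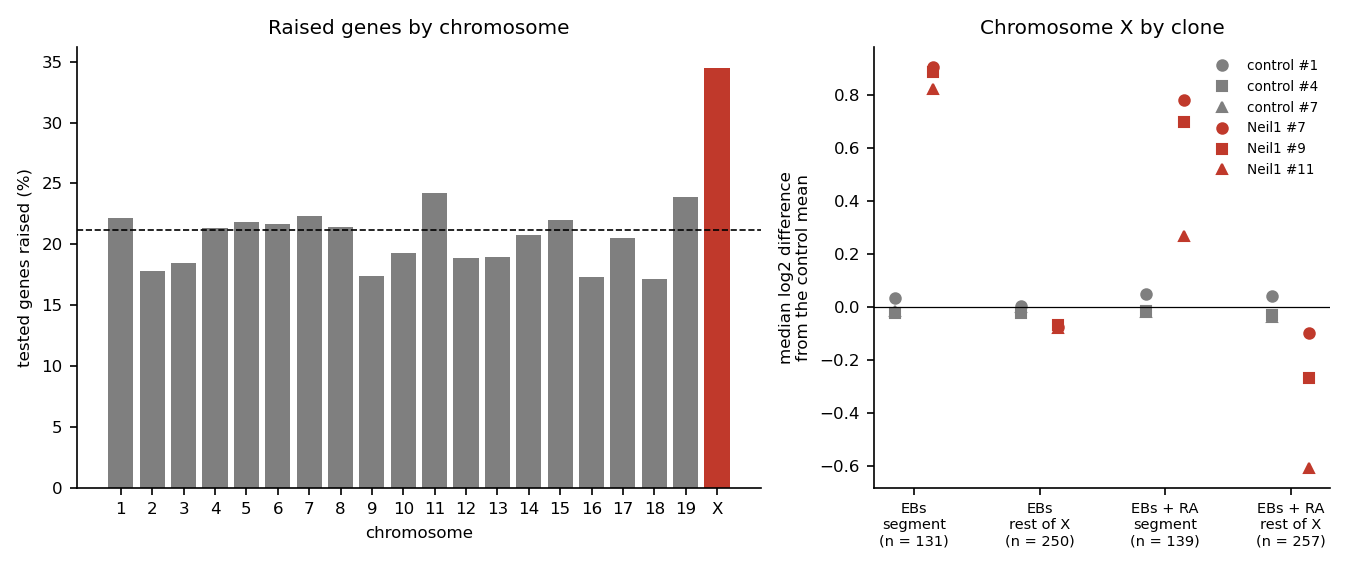
Left, percent of tested genes raised on each chromosome in Neil1 mutants against controls in EBs + RA, with the share of all genes tested as a dashed line at 21.2% and chromosome X (34.5%) in red. Right, median log2 difference from the control mean over the segment of X between 60 and 110 Mb and over the rest of X, per clone in EBs and EBs + RA, where the segment is raised in all Neil1 clones and Neil1 #11 (red triangle) is lower with RA than the other mutants in both parts.

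Several of the largest rises of the data lay on this chromosome. Xist, the noncoding RNA that coats an inactive X, was at 2.05, 3.09 and 1.95 CPM in the controls and 113, 149 and 425 in the mutants (log2FC 6.60 ± 0.60, FDR 0.000333) at chrX:100655714-100678556, and between 1.47 and 1.95 CPM in the controls and 13.5 and 48.5 CPM in the mutants in EBs without RA. The difference between the conditions was 2.63 (FDR 0.0409), and without Neil1 #11, the highest library, the rise with RA was 5.79. All 17 tested genes of the Xlr and Magea list (of 25) rose, with a median log2 fold change of 3.52, and 7 rose where at least 10 counts in every library were asked for. Xlr5a was at 0.247, 0.441 and 0.745 CPM in the controls and 10.5, 8.93 and 16.5 in the mutants (log2FC 4.63 ± 0.44, FDR 0.000322). Xlr3c was at 0.247, 0.842 and 0.923 CPM in the controls and 6.49, 3.9 and 12.8 in the mutants (log2FC 3.52 ± 0.59, FDR 0.00327). Mageb4 was at 0.317, 0.321 and 0.603 CPM in the controls and 4.4, 3.52 and 4.93 in the mutants (log2FC 3.35 ± 0.37, FDR 0.000533). The Xlr and Mage genes are multicopy families with near-identical members, so the level of a single one is uncertain. The leading genes of X also held Gm364, which was at 1.23, 0.522 and 1.63 CPM in the controls and 27.5, 19.3 and 25.1 in the mutants (log2FC 4.39 ± 0.39, FDR 0.000231). Efhc2, an EF-hand gene, was at 1.02, 0.762 and 3.41 CPM in the controls and 16.9, 22.8 and 18.4 in the mutants (log2FC 3.47 ± 0.52, FDR 0.00224), with a log2FC of 4.42 without control #7. Xlr5a, Xlr3c and Efhc2 were raised to a like degree without RA (log2FC 4.36, 4.05 and 3.66 in EBs). For these no difference between the conditions was called. Gm364 and Mageb4 had a more positive change with RA (differences of 1.40 and 2.30, FDR 0.0327 and 0.00403).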

How the data were processed

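RNA-seq of mESCs, EBs and EBs + RA was deposited as 1 table of raw counts per library. The authors made these counts by aligning TruSeq reads to mouse genome NCBIM37 and counting uniquely aligned reads per Ensembl gene, and the submitters' processing notes name TopHat2 2.0.9, Bowtie2 2.1.0, HTSeq 0.5.4 and DESeq2 1.6.3. Each table held 37991 gene identifiers, 37205 of them with annotation, and 5 rows of unassigned reads, which were left out. Per library these held 11.44% to 16.52% reads with several alignments, 7.04% to 8.65% outside genes and 2.48% to 2.88% ambiguous reads. Without these rows the 6 libraries held 24114162 to 29133599 counts. The kit does not mark strand, so that reads of overlapping and antisense genes cannot be told apart.

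Genotype was compared in the 6 libraries alone with edgeR 4.0.16 (limma 3.58.1, R 4.3.3): filterByExpr, TMM, robust quasi-likelihood fit and F test, DE at an FDR under 0.1 and a log2 fold change beyond 0.5. The interaction with RA used the 12 libraries of both conditions and was called at an FDR under 0.1 with no fold limit. CPM was TMM-normalized within each stage separately. Standard errors were derived from the fit, which kept edgeR's default prior count. A prior count of 2 was used for the log2 CPM behind library distances and correlations, and 0.5 was added to CPM for medians by library. RPKM is CPM per kb of exon in the NCBIM37 annotation. The fits were tested on simulated data. The fit of genotype recovered 57 of 99 genes changed 2-fold and 98 of 101 changed 4-fold, with 18 false calls. The interaction fit recovered 176 of 200 genes changed 4-fold, with 35 false calls. Each simulation changed 200 genes, far fewer than the 6580 and 5374 called in the data. The share of false calls in the data was thus not measured.

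The 44 lists (1513 entries matched, 20 not) and the rules for named genes were chosen with earlier results of these data known, and the segment of X after seeing these data. Named genes were Neil1, the 10 largest rises outside X, the 5 on X and the 8 deepest falls at a mean log2 CPM of at least 2 with clones that did not overlap, the 8 largest gains and losses of mean RPKM among DE genes whose clones did not overlap, defining and up to 3 leading members of each list, and members needed to give a role. Promoters came from RefSeq (GRCm38.p6) and guide sequences from the study's supplement, matched to NCBIM37.

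Alternatives were DESeq2 1.42.0, RLE size factors, other filters, an FDR of 0.05, all libraries of EBs + RA in 1 fit, autosomal genes only, replicate blocks, and leaving out each clone. Replicate numbers of different genotypes name unrelated clones, so they were not treated as pairs. The deviations of libraries with the same number still correlated at 0.13, 0.172 and 0.0962, against −0.106 to −0.0357 between different numbers. The reason for this was not tested. In the interaction, the same clone gave both conditions, and the clone block stands among the alternatives. Python 3.11.15, numpy 2.4.6, pandas 2.3.3 and matplotlib 3.10.9 were used for summaries and figures. A few members of the lists are not reported here by name.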

Additional observations from a re-analysis of the deposited data

Results flagged for a closer look

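Genes named in the report were examined for a change with genotype in EBs + RA that was opposite to that in EBs, DE in both and with a tested interaction. The values are the log2 fold change in EBs + RA minus that in EBs, each with an FDR below 0.1 for the difference in edgeR's quasi-likelihood test.

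Among genes lowered in the mutants without RA and raised with it, the differences were 2.95 for Krt8 and 2.72 for Krt18, the keratins of simple epithelia, and 1.64 for H2-K1 and 1.38 for B2m, the antigen presentation genes. The trophoblast and mesendoderm factors had 6.04 (Hand1), 6.51 (Cdx2) and 2.94 (Eomes), and Bmp2, a BMP ligand, had 4.14. The posterior Hox genes had 7.35 (Hoxa9), 5.90 (Hoxa10) and 3.59 (Hoxd13), and Cyp26a1, which degrades RA, had 2.13. The Hand1, Hoxa9 and Cdx2 rises with RA were lost when single clones were left out, as given in the report.

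Among genes raised without RA and lowered with it were neural genes, with differences of −6.66 for Pax6, −9.48 for Miat, −3.69 for Tubb3 and −3.65 for Elavl3. The signaling genes of neural tissue had −3.80 (Dll1), −2.19 (Ptch1), −3.10 (Gli1) and −4.52 (Sfrp1). Dnmt3a, a de novo DNA methyltransferase, had −1.62.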

How the results depend on the processing

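With 3 clones a side, the extent of the change in EBs + RA depended on the controls. All settings kept the sign of every gene called in both. The count of DE genes, 6580, was 6916 with DESeq2, 6587 with RLE size factors, 6734 without a filter, 5610 with at least 10 counts in every library, 5508 at an FDR of 0.05 and 7255 with all libraries of EBs + RA. Leaving out single clones gave 4594 to 7199, with 2114 to 3761 raised. With the replicate block, in which the numbers name unrelated clones, 6737 were DE, and every library correlated best with its own number, a hint from the data and not the design.

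For the interaction of genotype and RA the 5374 calls ranged from 2582 to 5946 when clones were left out, and those more positive with RA from 1328 to 3211. RLE size factors gave 5415, at least 10 counts 4687, and the clone as a replicate block 6610.

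Of the lists, 20 had more raised than lowered members and 22 more lowered than raised. Leaving out single clones gave 17 to 20 and 23 to 25, so the direction of some lists depended on the clones. The raised members of the posterior Hox list were 5 and of the forebrain and midbrain list 2 with at least 10 counts in every library, and the lowered endothelial members were 5. When clones were left out, the raised forebrain and midbrain members ranged from 4 to 8 and the raised members of the respiratory chain from 2 to 8. With no filter on low counts, the calls of Prl3d1 (FDR 0.137), Chrdl2 (0.185), Hand1 (0.221), Ttr (0.142), Cubn (0.113), Lama1 (0.184), Col4a1 (0.217) and Hoxa9 (0.110) were lost, and DESeq2 gave no adjusted p for Sohlh1. The cause of these changes was not tested. The median over chromosome X by Neil1 clone was 0.20, 0.08 and −0.23 at 5 CPM and 0.24, 0.16 and −0.13 at 1 CPM.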

Other observations

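A few further lists were measured. Of 22 tested immediate early genes, 11 rose and 2 fell in EBs + RA, with a median log2 fold change of 0.60, and their median in EBs was −0.72. Of the 22 tested, 16 had a more positive change with RA, and 6 rose when control #1 or control #4 was left out. The neural crest list had 15 lowered and 4 raised of 29 tested members. Cranial placode genes were evenly split, with 10 raised and 10 lowered of 27 tested, and 5 rose when control #1 or control #4 was left out. Of the erythroid list only 7 of 22 members were measured well enough to test, of which 4 rose and 3 fell, with 2 raised when control #1 or control #4 was left out.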
